A study of Rattus norvegicus with 48 samples.

Results

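At day 7 after inhalation of fracking sand dust together with diesel particles, the lungs of 8 exposed rats were compared with those of 8 rats that had breathed filtered air. These 16 libraries belong to a series of 48 lung libraries in 6 groups, and were taken by their labels as the air and the exposed columns of the day 7 table. All animals were male Sprague-Dawley rats, with no allele or other treatment named. During whole-body inhalation for 6 hours a day on 4 days, air rats received filtered air only. Exposed rats received diesel particles at 1.0 mg/m3 and, with them, fracking sand dust at 30 mg/m3, a mineral dust from the sand used in hydraulic fracturing. The lungs of both groups were taken 7 days after the exposure. The mixture was given as a whole, so the parts of dust and diesel cannot be told apart. Rats shared cages in pairs, but which animals did so is not given, and no sequencing batch is named. RNA came from a piece of lung, and polyadenylated transcripts were sequenced. Libraries are named here by group and animal number, A-265 to A-272 for air and E-273 to E-280 for exposed.

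Inhaled mineral and soot particles land on the lining of the airways and air sacs, where alveolar macrophages take them up and clear them. The known early answers of the lung include chemokines that draw neutrophils, detoxifying enzymes induced by the aryl hydrocarbon receptor, which senses aromatic compounds carried on soot, and antioxidant enzymes induced by the transcription factor NRF2. Macrophages and alveolar type 2 cells, which make the lipid-rich surfactant, also depend on a supply of cholesterol and fatty acids that the SREBP transcription factors control.

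Summed counts per library ran from 10226230 to 14400337, and the exposed mean differed from the air mean by -0.216% (exact two-sided permutation test, p = 0.966). Sftpc, the surfactant protein made by alveolar type 2 cells, stood at 6463 to 9085 CPM (counts scaled to the library size) over the 16 libraries. Air libraries A-265 and A-268, and exposed libraries E-275 and E-278, lay far closer together than the other pairs within a group: their median squared count difference was 1.56 and 1.49 times counting noise, against 2.35 to 5.50 in the others. Whether each of these pairs is 1 animal measured again is not given. Means and SDs below therefore use the average of each close pair as 1 value, so that n = 7 per group, while lowest, median and highest values are over all 8 libraries. Log2 fold changes, their SEs and p-values are of all 16 libraries taken singly unless another fit is named. The main counts are given also with each close pair summed into 1 library.

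No gene passed the test. Of 14259 genes tested with edgeR's quasi-likelihood test, 0 (0%) had an adjusted p under 0.05, and the smallest adjusted p was 0.227, shared by 16 genes. An unadjusted p under 0.05 was reached by 616 genes whose level was higher in exposed lungs (4.32%) and by 592 whose level was lower (4.15%). With the close pairs summed, 14307 genes were tested, 0 (0%) had an adjusted p under 0.05, and 473 were higher (3.31%) and 512 lower (3.58%) at an unadjusted p under 0.05. The overlap of both fits was 861 genes at an unadjusted p under 0.05. The differences were small: among the 14089 genes that averaged 1 CPM or more, the median absolute log2 fold change was 0.06, and 154 of them had a fitted difference of 1.5-fold or more. All genes and lists below are thus described by their values. None of the genes was called by this test, and no list was tested as a whole.

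**Figure D1:**
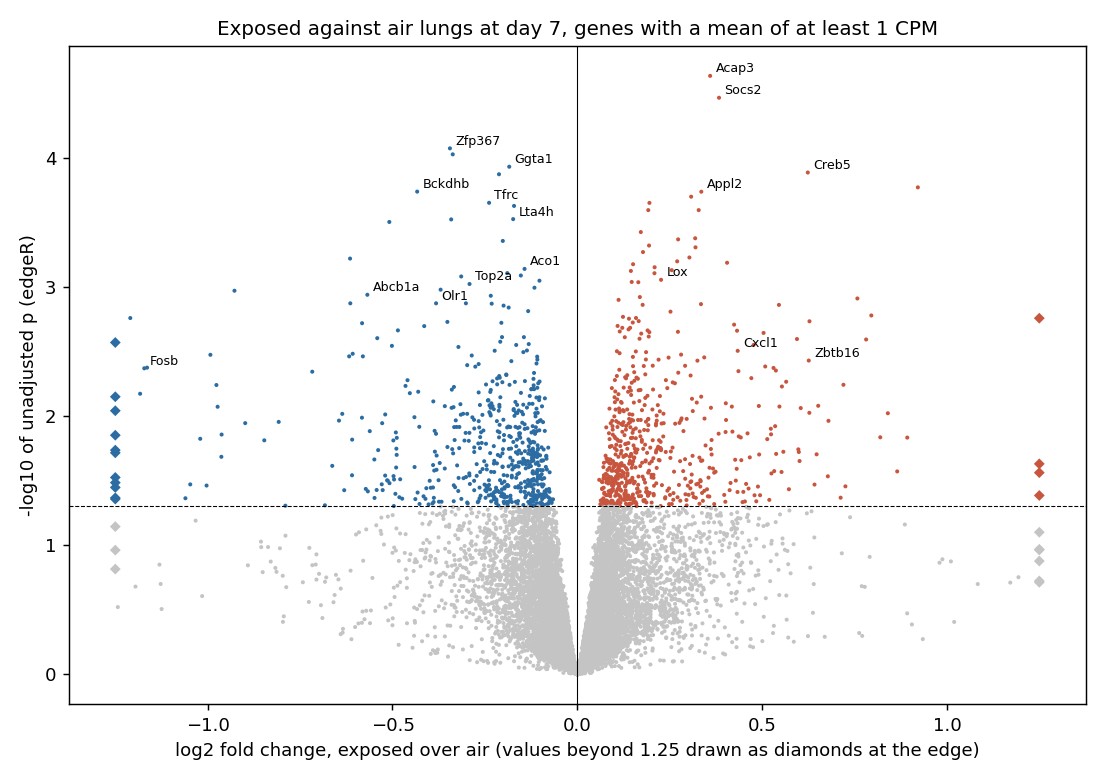
Each point is a gene with a mean of at least 1 CPM, placed by its log2 fold change of exposed over air lungs (x axis) and the -log10 of its unadjusted edgeR p (y axis). Points above the dashed line have an unadjusted p under 0.05; over all genes tested these were 616 higher and 592 lower, and none had an adjusted p under 0.05.

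Acap3 and Socs2 had the smallest p of all genes, and both were higher in exposed lungs. Acap3, a protein that switches off the membrane-traffic GTPase ARF6, lay between 27.6 and 38.3 CPM in air lungs (median 33.1) and between 36.0 and 48.7 CPM in exposed lungs (median 42.2). The groups met only in air library A-272, the highest of its group, and exposed library E-277, the lowest of its group. Its mean was 33.3 ± 3.36 CPM for air rats and 42.5 ± 4.05 CPM for exposed rats (SD, n = 7 each). Over all 16 libraries its log2 fold change was 0.36 ± 0.07 (SE, adjusted p of 0.227 by edgeR), and 0.35 with the pairs summed (edgeR adjusted p = 0.385). Socs2, a feedback inhibitor of growth hormone and cytokine receptors, lay between 15.7 and 23.0 CPM in air lungs (median 19.8) and between 22.9 and 27.4 CPM in exposed lungs (median 25.9). Only air library A-272 stood above any exposed library, namely E-277 and E-280. Its log2 fold change was 0.38 ± 0.07 (SE, adjusted p of 0.227 by edgeR), and 0.37 with the pairs summed (edgeR adjusted p = 0.385). The list of SOCS proteins and the growth hormone axis had 13 of 19 members above 0 with a median of 0.03, and Socs2 was its only member at an unadjusted p under 0.05. Cish, another feedback inhibitor of this family, had a log2 fold change of 0.27 ± 0.15 (SE).

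Other genes that were higher act in signalling, transcription and the matrix. Creb5, a transcription factor that binds cAMP response elements, lay between 3.23 and 4.83 CPM in air lungs (median 4.13) and between 4.29 and 7.60 CPM in exposed lungs (median 6.72). Exposed library E-279 was the only exposed library below the highest air library, and the log2 fold change was 0.62 ± 0.13 (SE, adjusted p of 0.227 by edgeR). Appl2, an endosomal adaptor, had medians of 41.3 and 48 CPM in air and exposed lungs. Adamts15, a secreted protease that cuts proteoglycans, had medians of 104 and 132 CPM, with exposed libraries E-273 and E-277 within the air range. Lox, the enzyme that crosslinks collagen and elastin, lay between 177 and 223 CPM in air lungs (median 205) and between 212 and 269.8 CPM in exposed lungs (median 237). Its ranges met where air libraries A-271 and A-272 and exposed libraries E-273, E-275 and E-278 lay between 212 and 223 CPM, and its log2 fold change was 0.23 ± 0.06 (SE, adjusted p of 0.305 by edgeR). Zhx3, Rit1, Fmr1, Ksr1 and Fli1 had log2 fold changes between 0.17 and 0.32. A low-count identifier named Tsc22d3 (ENSRNOG00000060899) was also among these genes, with medians of 0.814 and 1.46 CPM. It shares its name with another identifier, and how reads were split between them is uncertain. The other identifier, with far more counts, lay between 122 and 454 CPM in air lungs and between 133 and 456 CPM in exposed lungs. Its log2 fold change was 0.49 ± 0.34 (SE, adjusted p of 0.716 by edgeR).

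Among the lower genes were Tfrc and Aco1, which serve iron supply. Tfrc, the transferrin receptor that brings iron into cells, lay between 44.4 and 50.2 CPM in air lungs (median 47.9) and between 36.0 and 47.3 CPM in exposed lungs (median 39.2). Exposed library E-277 was the only exposed library above the lowest air library. The log2 fold change of Tfrc was -0.24 ± 0.05 (SE, adjusted p of 0.227 by edgeR). Aco1, the cytosolic aconitase that turns into the iron sensor IRP1 when iron is short, lay between 67.8 and 79.1 CPM in air lungs (median 72.7) and between 62.5 and 67.6 CPM in exposed lungs (median 66.3), with no overlap. Its means were 71.9 ± 3.56 and 65.7 ± 1.71 CPM (SD, n = 7 each). Over all 16 libraries its log2 fold change was -0.14 ± 0.04 (SE, adjusted p of 0.302 by edgeR), and -0.13 with the pairs summed (edgeR adjusted p = 0.579). Of 11 genes of iron and haem handling, a list without Aco1, 9 lay above 0 with a median of 0.09. Tfrc was its only member at an unadjusted p under 0.05. With the pairs summed, 7 of the 11 lay above 0, and 7 to 10 did when 1 library was left out.

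Other lower genes act in inflammation, the cytoskeleton and metabolism. Lta4h, the enzyme that makes the neutrophil attractant leukotriene B4, lay between 176 and 217 CPM in air lungs (median 189) and between 162 and 177 CPM in exposed lungs (median 171). The lowest air library, A-267, was the only air library within the exposed range, and the log2 fold change was -0.17 ± 0.04 (SE, adjusted p of 0.236 by edgeR). Gsn, the actin-severing protein gelsolin, lay between 4971 and 5941 CPM in air lungs (median 5261) and between 4075 and 4911 CPM in exposed lungs (median 4717), with no overlap. Its log2 fold change was -0.21 ± 0.05 (SE, adjusted p of 0.227 by edgeR), and -0.23 with the pairs summed (edgeR adjusted p = 0.507). Ggta1, the enzyme that adds the alpha-gal sugar to cell surfaces, had medians of 181 and 157 CPM in air and exposed lungs, and 1 air library, A-272, stood at 154 CPM among the exposed ones. Bckdhb, a subunit of the enzyme that breaks down branched-chain amino acids, had medians of 23.3 and 17.9 CPM, and Rrm1, the large subunit of ribonucleotide reductase, which makes DNA precursors, 58.3 and 51.7 CPM. Zfp367, Mettl24, Apopt1 and Ldhb had log2 fold changes between -0.34 and -0.20.

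Over all genes tested, 2 had every exposed library above every air library (0.014%) and 4 had every exposed library below (0.0281%). The higher ones were Fam76b and Apaf1, the scaffold of the apoptosome that activates caspases in cell death. Apaf1 lay between 63.7 and 76.3 CPM in air lungs (median 72.8) and between 76.4 and 86.2 CPM in exposed lungs (median 79.5), so that the groups were parted by little, with a log2 fold change of 0.15 ± 0.04 (SE, adjusted p of 0.305 by edgeR). Fam76b reached 41.1 CPM in air lungs and started at 41.3 CPM in exposed lungs. The lower ones were Gsn, Aco1, Abcb1a and a low-count identifier named Rpl35a (ENSRNOG00000032303), whose name is shared by 5 identifiers and whose counts are uncertain. Abcb1a, the drug efflux pump P-glycoprotein, lay between 44.1 and 84.6 CPM in air lungs (median 47.3) and between 29.5 and 44.0 CPM in exposed lungs (median 37.1), and air libraries A-269 and A-272 stood far above the other air libraries. After the pairs were summed, 18 genes had groups that did not overlap, 5 higher and 13 lower.

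**Figure D2:**
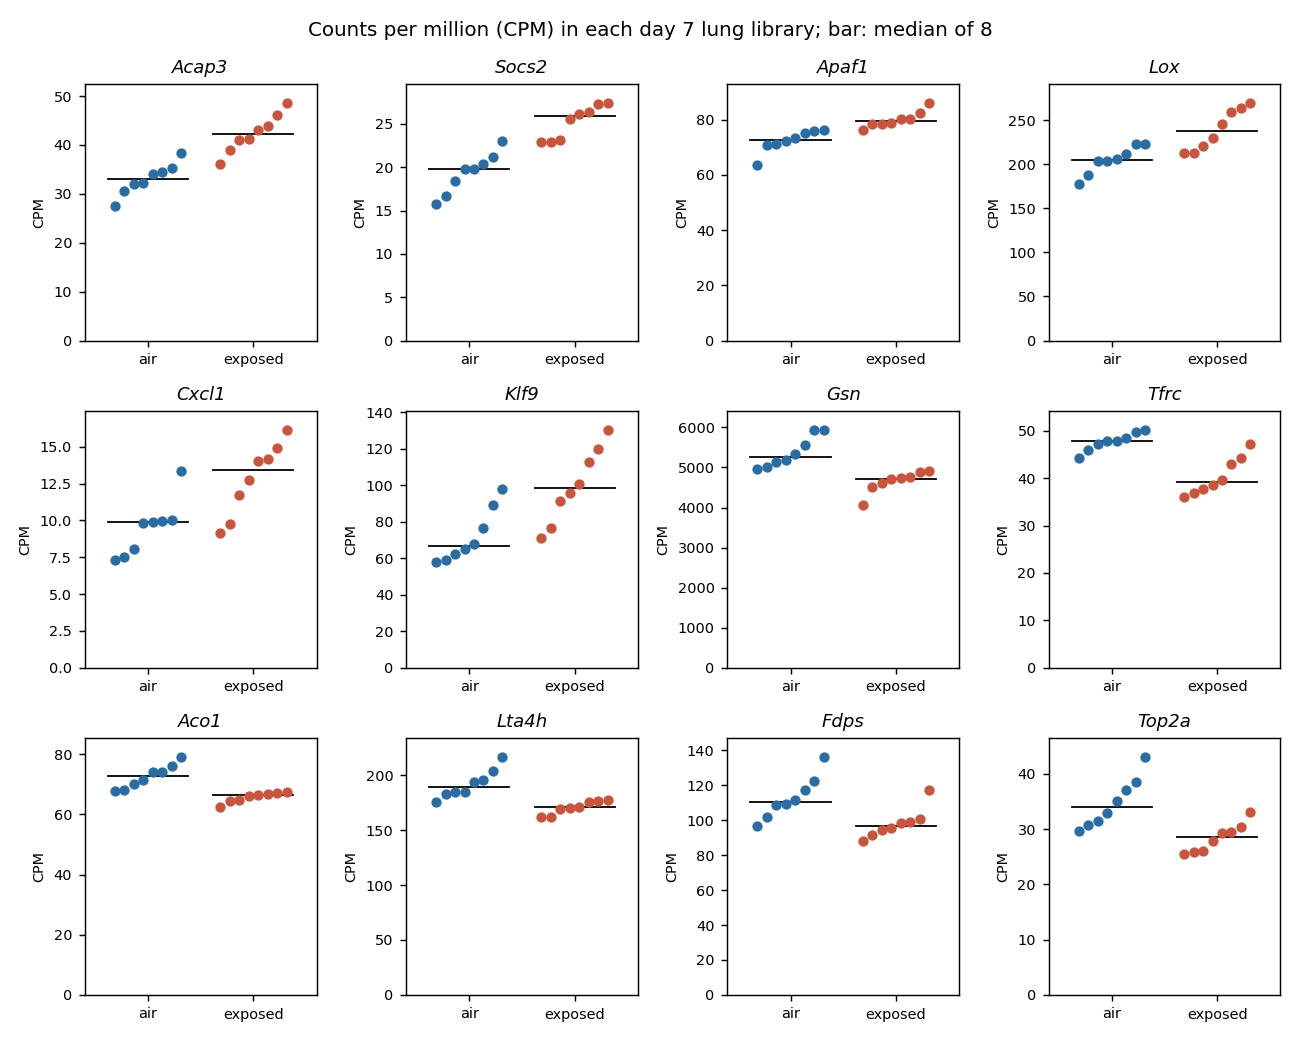
Each panel shows 1 gene, with the CPM (y axis, from 0) of the 8 air and 8 exposed libraries as points and a bar at the median of each group. Gsn, Aco1 and Apaf1 have groups that do not overlap, while in Klf9, Cxcl1 and Fdps the groups share part of their range.

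The gene lists were read by the counts and medians of their members. Over the 14259 genes tested the median log2 fold change was -0.0008 and 49.7% lay above 0. Cholesterol synthesis and cell cycle genes lay mostly below 0, and interferon-stimulated, glucocorticoid response and heat shock genes mostly above it. Their counts at an unadjusted p under 0.05 read against the 4.32% of all genes that were higher and the 4.15% that were lower. Most list medians moved with single libraries: leaving out 1 library took the median beyond 1.5 times its value, in either direction, in 36 of 40 lists, and across 0 in 14 of them. It stayed within that limit for cholesterol synthesis, cell cycle, interferon-stimulated and fatty acid synthesis genes.

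**Figure D3:**
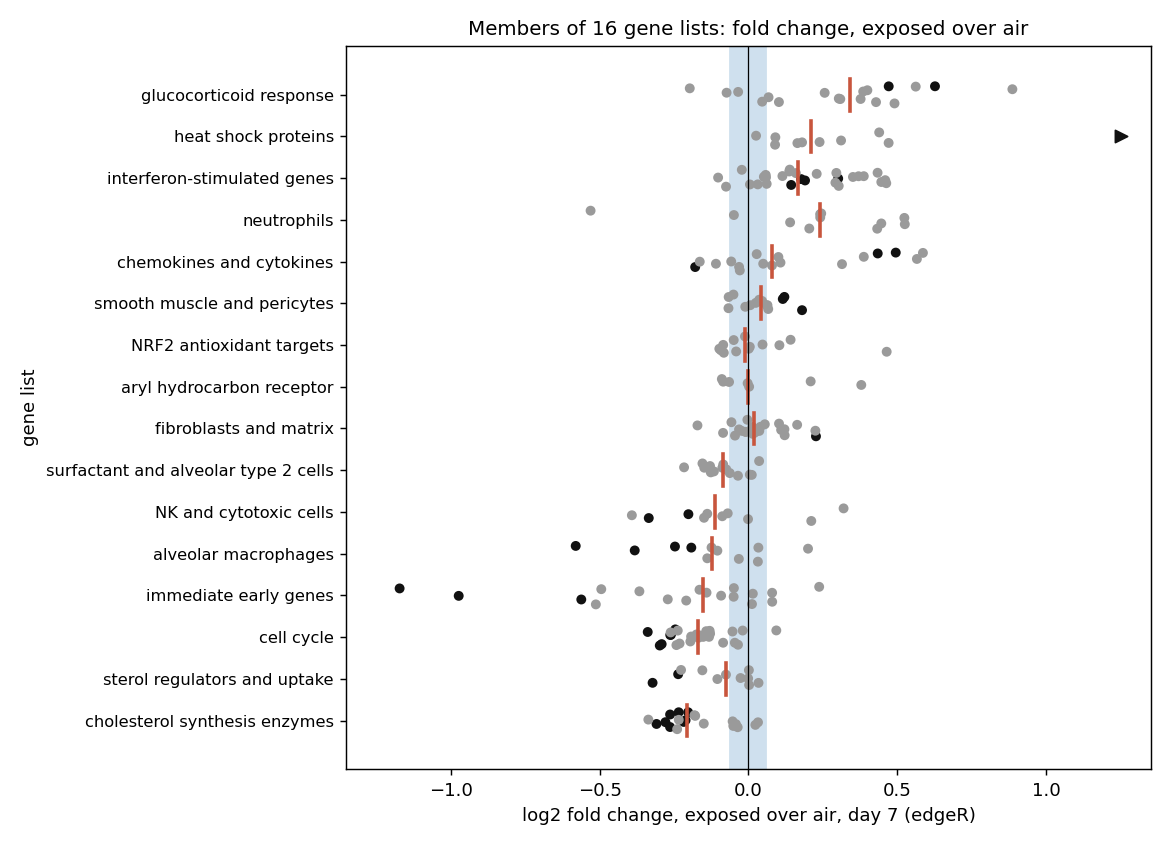
Points are the tested members of 16 gene lists, placed by their log2 fold change of exposed over air (x axis), black where the unadjusted edgeR p was under 0.05, with a red bar at the list's median; the blue band spans the quartiles of all genes tested. Cholesterol synthesis enzymes (18 of 20) and cell cycle genes (26 of 27) lie mostly below 0, and interferon-stimulated genes (25 of 28) mostly above it. The arrow marks Hspa1b, at 2.21.

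Of 20 enzymes of cholesterol synthesis, 18 had a log2 fold change below 0, with a median of -0.21, and 8 had an unadjusted p under 0.05, all lower in exposed lungs. Fdps, which makes farnesyl pyrophosphate, lay between 96.5 and 136 CPM in air lungs (median 110.5) and between 88.0 and 118 CPM in exposed lungs (median 96.8). The exposed libraries other than E-277 were all under the mean of air lungs, 113 ± 13.2 CPM (SD, n = 7), but the ranges overlapped, and the log2 fold change was -0.20 ± 0.06 (SE, adjusted p of 0.446 by edgeR). Fdft1, the squalene synthase, had medians of 72.6 and 59.9 CPM in air and exposed lungs. In both, exposed library E-277 was the highest of its group. Msmo1, Dhcr7, Sc5d and Idi1, enzymes of the same pathway, had log2 fold changes between -0.31 and -0.22, and Ebp and Lss, the only members above 0, 0.03 and 0.02. Summing the pairs again left 8 members lower at an unadjusted p under 0.05.

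The start regions of Fdps and Msmo1 are printed because the letters bound by SREBP factors were searched in them. Each is the 250 bases before the transcription start in RefSeq's rat build GRCr8, on the gene's own strand, for Fdps chr2:176804817-176805066 (minus strand) and for Msmo1 chr16:29746863-29747112 (plus strand).
Fdps: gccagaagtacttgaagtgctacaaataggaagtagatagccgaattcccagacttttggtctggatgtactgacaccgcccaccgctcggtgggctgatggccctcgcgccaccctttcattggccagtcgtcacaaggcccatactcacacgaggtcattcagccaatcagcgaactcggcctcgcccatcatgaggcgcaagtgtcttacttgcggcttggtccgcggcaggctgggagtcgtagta
Msmo1: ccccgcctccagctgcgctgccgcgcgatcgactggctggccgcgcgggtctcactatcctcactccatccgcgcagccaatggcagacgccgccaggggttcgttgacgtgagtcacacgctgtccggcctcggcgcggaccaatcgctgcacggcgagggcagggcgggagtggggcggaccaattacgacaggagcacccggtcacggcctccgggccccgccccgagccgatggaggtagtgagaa
The core of the sterol regulatory element, TCACNCCAC on either strand, was in neither, nor in any of the 15 members with a start region in the table, and was in 0.974% of all 33469 start regions. No match says only that these letters are not in this window. Fdft1 had no entry.

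The regulators of the pathway lay nearer 0. Srebf2, the transcription factor that drives the pathway when sterols are low, had a log2 fold change of -0.00 ± 0.04 (SE), and its escort Scap 0.00 ± 0.04. Of the 11 genes of sterol regulation and uptake tested, 2 had an unadjusted p under 0.05, both lower in exposed lungs. One of them was Srebf1, which drives fatty acid synthesis, with a log2 fold change of -0.24 ± 0.10 (SE, adjusted p of 0.5685 by edgeR). With the pairs summed, 0 of the 11 had an unadjusted p under 0.05. Of 16 genes of fatty acid and phospholipid synthesis, 13 lay below 0 (median -0.09), and Acly, which supplies cytosolic acetyl-CoA, was the only one at an unadjusted p under 0.05 (-0.11 ± 0.04, SE).

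The cholesterol list was not low in every exposed animal. The mean log2 level of its members, relative to the air mean, lay between -0.16 and 0.26 in air libraries and between -0.46 and -0.09 in 7 exposed libraries, while exposed library E-277 stood at 0.12. Exposed libraries E-273, E-276 and E-279 lay within the air range too. Leaving out 1 library at a time kept the list's median between -0.24, without exposed library E-277, and -0.16, without air library A-269.

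Of 27 cell cycle genes tested, 26 had a log2 fold change below 0, with a median of -0.17, and 6 had an unadjusted p under 0.05, all lower in exposed lungs. Top2a, the topoisomerase that untangles DNA in dividing cells, lay between 29.7 and 43.0 CPM in air lungs (median 33.9) and between 25.5 and 33.2 CPM in exposed lungs (median 28.6). Every one of the 8 exposed libraries was under the mean of air lungs, 35.4 ± 4.51 CPM (SD, n = 7), though the ranges overlapped, and the log2 fold change was -0.29 ± 0.08 (SE, adjusted p of 0.308 by edgeR). Cdk1, the kinase that starts mitosis, had medians of 12.5 and 10.5 CPM, and Bub1b, a spindle checkpoint kinase, 6.14 and 5.38 CPM, where air library A-269 stood alone at 10.3 CPM. Cenpf, a kinetochore protein, and the mitotic motors Kif11 and Kif20a had log2 fold changes of -0.26, -0.25 and -0.30. Mki67, the proliferation marker, had -0.19 ± 0.10 (SE, edgeR adjusted p = 0.598), and Pcna, the clamp of DNA polymerase, -0.02 ± 0.05. In bulk lung, fewer cells of a type and less RNA per cell cannot be told apart. The list's mean log2 level lay between -0.12 and 0.18 in air libraries and between -0.36 and -0.13 in 6 exposed libraries, while exposed libraries E-276 and E-277 stood at 0.05. Once the pairs were summed, 5 members were lower at an unadjusted p under 0.05.

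The same windows of the 4 cell cycle genes of smallest p are printed for the motifs known from this class, CCAAT, the box bound by NF-Y, and TTTGAA, the cell cycle genes homology region, with matches on either strand in capitals. They are Top2a (chr10:84473094-84473343, minus strand), Cdk1 (chr20:19265043-19265292, plus strand), Bub1b (chr3:126016817-126017066, plus strand) and Cenpf (chr13:103760887-103761136, minus strand).
Top2a: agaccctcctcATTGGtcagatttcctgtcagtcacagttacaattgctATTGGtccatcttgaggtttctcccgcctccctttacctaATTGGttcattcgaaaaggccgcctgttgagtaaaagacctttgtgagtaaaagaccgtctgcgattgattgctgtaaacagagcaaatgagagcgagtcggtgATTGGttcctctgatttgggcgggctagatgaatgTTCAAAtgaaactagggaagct
Cdk1: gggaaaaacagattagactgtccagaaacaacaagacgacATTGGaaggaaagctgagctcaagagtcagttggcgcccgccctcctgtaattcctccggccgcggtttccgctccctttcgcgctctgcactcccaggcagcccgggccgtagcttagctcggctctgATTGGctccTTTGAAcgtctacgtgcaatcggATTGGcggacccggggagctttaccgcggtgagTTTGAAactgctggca
Bub1b: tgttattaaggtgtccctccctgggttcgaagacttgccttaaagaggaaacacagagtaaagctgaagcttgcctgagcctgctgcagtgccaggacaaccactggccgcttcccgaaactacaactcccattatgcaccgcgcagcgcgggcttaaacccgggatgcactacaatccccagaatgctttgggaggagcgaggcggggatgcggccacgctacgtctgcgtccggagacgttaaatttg
Cenpf: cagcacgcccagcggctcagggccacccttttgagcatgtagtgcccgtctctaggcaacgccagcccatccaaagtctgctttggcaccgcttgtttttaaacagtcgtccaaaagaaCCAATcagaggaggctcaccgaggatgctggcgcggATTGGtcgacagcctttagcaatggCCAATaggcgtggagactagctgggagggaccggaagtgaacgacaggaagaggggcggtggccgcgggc
Top2a holds 4 CCAAT boxes and 1 homology region, Cdk1 3 boxes and 2 homology regions, Cenpf 3 boxes, and Bub1b no match in this window. CCAAT was in 15 of 20 members with a start region (75%), against 34.0% of all 33469 start regions and 35.0% of the 10009 that belong to tested genes. TTTGAA was in 7 of 20 members (35%), against 16.2% and 10.3%.

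Interferon-stimulated genes lay mostly above 0, and the exposed animals differed among themselves. Of 28 genes tested, 25 had a log2 fold change above 0, with a median of 0.17, and 4 had an unadjusted p under 0.05, all higher in exposed lungs. Eif2ak2, the kinase PKR that stops translation on sensing double-stranded RNA, lay between 106 and 113 CPM in air lungs (median 108) and between 97.1 and 148 CPM in exposed lungs (median 127). Exposed libraries E-275, E-277, E-278, E-279 and E-280 lay above every air library, while E-273, E-274 and E-276 lay below every air library, and the log2 fold change was 0.18 ± 0.07 (SE, adjusted p of 0.548 by edgeR). Ifi44 had medians of 64.9 and 73.3 CPM, Oasl, a relative of the oligoadenylate synthetases, 14.0 and 17.5 CPM, and Irf9, the DNA-binding part of the complex that turns these genes on, 63.9 and 74.7 CPM. Mx1, an antiviral GTPase, lay between 68.3 and 119 CPM in air lungs (median 81.1) and between 65.0 and 166 CPM in exposed lungs (median 115), a log2 fold change of 0.46 ± 0.22 (SE, adjusted p of 0.591 by edgeR). Irf1, which answers chiefly to interferon gamma, had a log2 fold change of 0.00 ± 0.06 (SE).

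The list's mean log2 level lay between -0.18 and 0.18 in air libraries. It was 0.46, 0.48 and 0.46 in exposed libraries E-275, E-277 and E-278, 0.28 in E-280, 0.19 in E-279 and 0.02 in E-276, but -0.26 and -0.35 in E-273 and E-274. With the pairs summed, which joins E-275 and E-278, the median was 0.13, with 23 of 28 members above 0 and 0 at an unadjusted p under 0.05. The windows of the 4 members at an unadjusted p under 0.05 are printed for the core of the interferon-stimulated response element, GAAANNGAA on either strand, in capitals. They are Eif2ak2 (chr6:21940904-21941153, plus strand), Ifi44 (chr2:243303841-243304090, minus strand), Oasl (chr12:47356293-47356542, minus strand) and Irf9 (chr15:33065586-33065835, plus strand).
Eif2ak2: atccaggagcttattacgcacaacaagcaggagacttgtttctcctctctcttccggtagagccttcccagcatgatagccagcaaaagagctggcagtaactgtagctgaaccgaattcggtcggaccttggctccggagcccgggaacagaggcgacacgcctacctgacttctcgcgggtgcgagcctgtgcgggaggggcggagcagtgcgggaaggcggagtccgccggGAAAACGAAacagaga
Ifi44: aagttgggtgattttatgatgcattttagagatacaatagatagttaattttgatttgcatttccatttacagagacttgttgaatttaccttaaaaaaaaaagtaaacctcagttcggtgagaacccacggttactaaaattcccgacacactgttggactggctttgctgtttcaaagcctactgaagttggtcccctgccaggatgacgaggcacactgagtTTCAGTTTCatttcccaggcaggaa
Oasl: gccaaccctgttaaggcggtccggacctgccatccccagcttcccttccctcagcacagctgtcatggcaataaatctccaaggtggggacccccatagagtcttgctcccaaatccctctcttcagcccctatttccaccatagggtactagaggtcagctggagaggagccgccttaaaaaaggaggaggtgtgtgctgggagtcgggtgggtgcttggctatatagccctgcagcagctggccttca
Irf9: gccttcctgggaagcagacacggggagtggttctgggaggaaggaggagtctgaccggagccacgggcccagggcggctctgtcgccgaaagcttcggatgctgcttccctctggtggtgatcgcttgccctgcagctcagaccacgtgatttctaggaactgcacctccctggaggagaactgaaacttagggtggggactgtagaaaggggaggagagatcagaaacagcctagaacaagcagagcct
The match begins 16 bases before the start in Eif2ak2 and 25 bases before it in Ifi44, and neither Oasl nor Irf9 holds a match in this window. It was in 11 of 18 members (61.1%), against 8.12% of all start regions and 6.44% of those of tested genes.

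Genes induced by glucocorticoids were higher in most exposed libraries and in some air libraries. Of 18 genes tested, 15 had a log2 fold change above 0, with a median of 0.34, and 2 had an unadjusted p under 0.05. Zbtb16, a transcription factor that glucocorticoids induce, lay between 5.02 and 11.2 CPM in air lungs (median 5.98) and between 6.98 and 16.8 CPM in exposed lungs (median 10.1). Air libraries A-269, A-270 and A-271 lay within the exposed range, and the log2 fold change was 0.63 ± 0.19 (SE, adjusted p of 0.412 by edgeR). Klf9, another direct target of the receptor, lay between 57.8 and 98.0 CPM in air lungs (median 66.4) and between 71.2 and 130.4 CPM in exposed lungs (median 98.2), with air libraries A-270, A-271 and A-272 within the exposed range and a log2 fold change of 0.47 ± 0.14 (SE, adjusted p of 0.446 by edgeR). Nr3c1, the glucocorticoid receptor itself, had a log2 fold change of 0.05 ± 0.03 (SE). The list's mean log2 level was highest in air library A-272, at 0.75, and exposed library E-276, at 0.78, and stood at -0.23 in exposed library E-273 and -0.06 in E-277. Without air library A-272 the list's median was 0.53, and without exposed library E-276 it was 0.21. The receptor motif AGAACA was in 0 of 14 members with a start region, against 17.5% of all start regions and 10.6% of those of tested genes. Here too, no match says only that these letters are not in this window.

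Clock genes lay on both sides of 0, with 10 of 19 above and a median of 0.06, which was -0.05 without exposed library E-280. Per1, a clock repressor that glucocorticoids also induce, lay between 18.6 and 134 CPM in air lungs (median 35.0) and between 31.7 and 155 CPM in exposed lungs (median 92.9), a log2 fold change of 0.89 ± 0.45 (SE, adjusted p of 0.612 by edgeR). Nr1d1, the repressor REV-ERB alpha whose level swings over the day, lay between 5.80 and 53.2 CPM in air lungs (median 10.5) and between 9.39 and 88.1 CPM in exposed lungs (median 17.8). Npas2, a partner of ARNTL, had medians of 52.4 and 48.5 CPM and a log2 fold change of -0.11 ± 0.05. The hour at which each lung was taken is not given, and its part in these genes was not tested. The E-box CACGTG was in 3 of 15 clock members with a start region (20%), against 5.59% of all start regions and 7.88% of those of tested genes.

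Heat shock genes varied by library within both groups. All 10 tested had a log2 fold change above 0, with a median of 0.21 (0.13 without exposed library E-276), and Hspa1b, the stress-induced HSP70 chaperone, was the only one at an unadjusted p under 0.05; with the pairs summed, 0 were. Hspa1b stood at 522 to 1185 CPM in exposed libraries E-275, E-276, E-278 and E-280 and at 30.9 to 45.8 CPM in the other 4 exposed libraries. In air lungs it stood at 443 CPM in library A-272 and 169 CPM in library A-266, and at 22.4 to 53.4 CPM in the other 6. Its log2 fold change was 2.21 ± 0.98 (SE, adjusted p of 0.577 by edgeR), and 1.71 with the pairs summed. Immediate early genes, transcription factors switched on within minutes of a stimulus, had 13 of 18 members below 0, a median of -0.15 (-0.10 without air library A-269) and 3 at an unadjusted p under 0.05. Fosb lay between 3.53 and 19.9 CPM in air lungs (median 6.85) and between 1.77 and 4.57 CPM in exposed lungs (median 3.94), with air library A-269 far above the rest. Egr1 stood at 74.6 to 84.9 CPM in air libraries A-265, A-268 and A-269, of which A-265 and A-268 are a close pair, and at 22.7 to 48.8 CPM in the other 5, against 14.7 to 37.5 CPM in exposed lungs. Nr4a1, a nuclear receptor of the same class, had medians of 39.4 and 22.6 CPM.

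**Figure D4:**
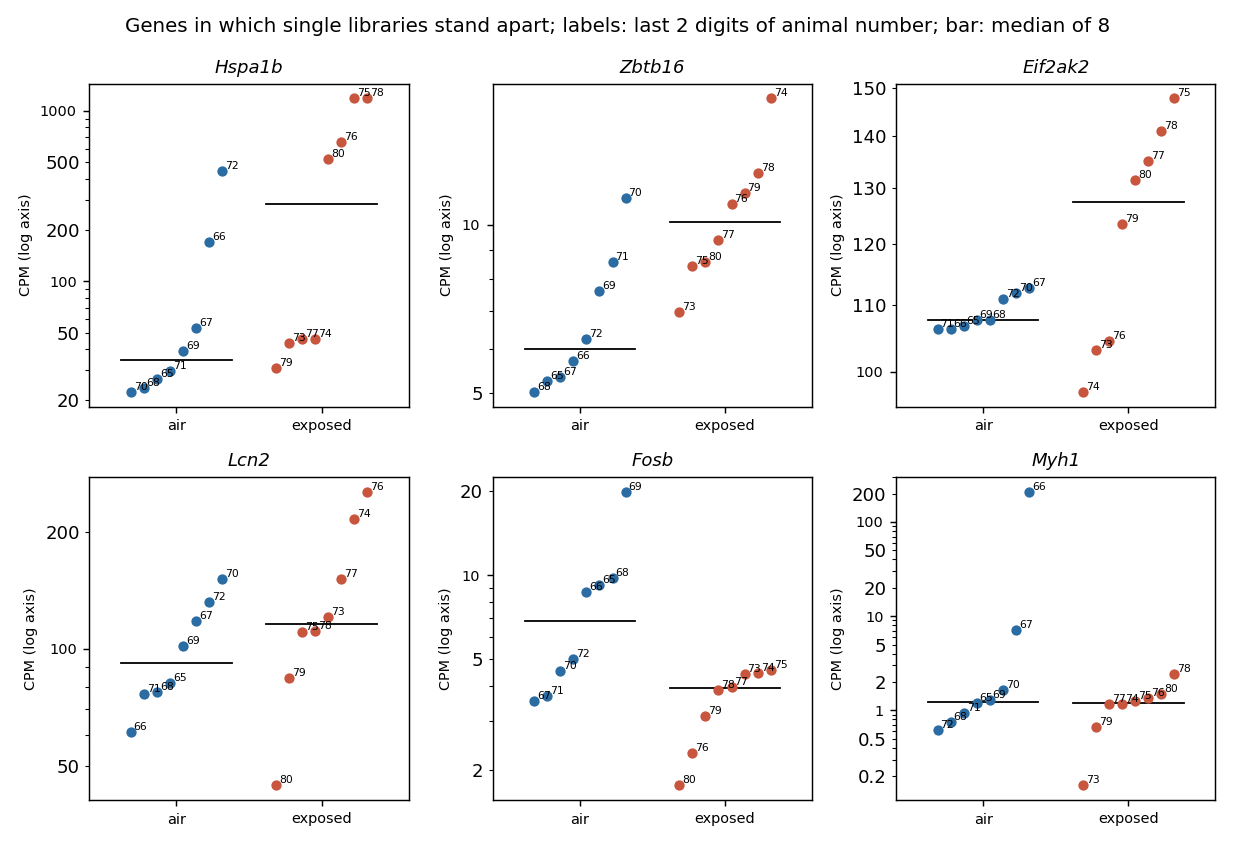
Each panel shows 1 gene in the 8 air and 8 exposed libraries on a log axis of CPM, labelled with the last digits of the animal number, with a bar at the median. Hspa1b falls into a high and a low set of libraries in both groups, Eif2ak2 has exposed libraries above and below every air library, and Myh1 is high in air library A-266.

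**Figure D5:**
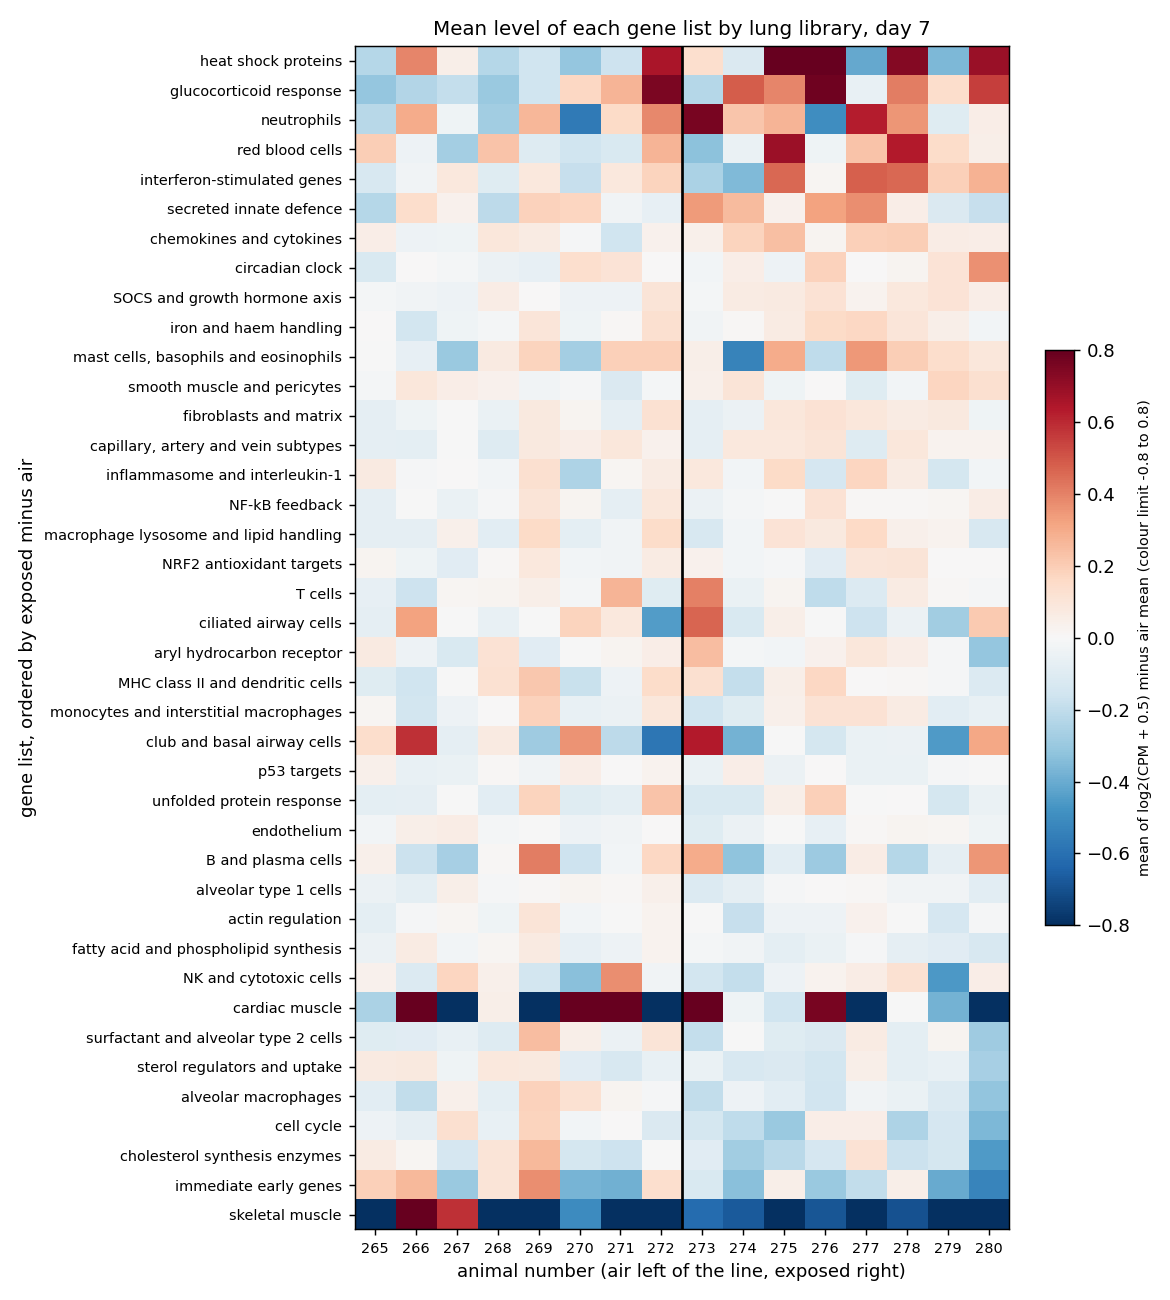
Columns are the 16 libraries by group, rows are the 40 gene lists, and colour is the mean of the members' log2(CPM + 0.5) minus the air mean, limited to -0.8 to 0.8. Heat shock genes are high in air library A-272 as well as in exposed libraries E-275, E-276, E-278 and E-280, and cholesterol synthesis genes lie below every air library in exposed libraries E-274, E-275, E-278 and E-280 and within the air range in the other 4.

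Of 17 chemokines and cytokines tested, 11 had a log2 fold change above 0, with a median of 0.08, 2 were higher at an unadjusted p under 0.05 and 1 was lower. The median was 0.01 without exposed library E-278 and 0.15 without E-273, and with the close pairs summed it was 0.02, with 9 of 17 above 0. Cxcl1, a chemokine that draws neutrophils, lay between 7.34 and 13.3 CPM in air lungs (median 9.86) and between 9.15 and 16.2 CPM in exposed lungs (median 13.4). Of the air libraries only A-270 stood above 10 CPM, as did all exposed libraries but E-278 and E-280, and the close partner of E-278, library E-275, stood at 14.1 CPM. The log2 fold change of Cxcl1 was 0.43 ± 0.13 (SE, adjusted p of 0.404 by edgeR). Il1b, the inflammasome cytokine, had medians of 19.2 and 30.3 CPM, with the close pair E-275 and E-278 highest at 41.1 and 45.4 CPM, and a log2 fold change of 0.49 ± 0.22 (SE). With the pairs summed, the log2 fold change of Il1b was 0.38 (edgeR unadjusted p = 0.120). The list then had 1 member higher at an unadjusted p under 0.05. Il18, a cytokine of the same family, had medians of 22.4 and 19.0 CPM and a log2 fold change of -0.18 ± 0.07 (SE). Ccl2, the monocyte chemokine, lay between 1.81 and 3.63 CPM in air lungs (median 2.22) and between 1.12 and 3.24 CPM in exposed lungs (median 2.11), a log2 fold change of -0.16 ± 0.22 (SE, adjusted p of 0.879 by edgeR).

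Neutrophil genes had 9 of 11 members above 0 and a median of 0.24, with 0 at an unadjusted p under 0.05. Without exposed library E-273 the median was 0.14, and without air library A-272 it was 0.36. S100a9, a calcium-binding protein abundant in neutrophils, lay between 34.2 and 102 CPM in air lungs (median 68.4) and between 41.1 and 188 CPM in exposed lungs (median 99.6). Exposed libraries E-273 and E-277 stood above every air library, and exposed library E-276 stood below most of them. The close pair E-278 and E-275, at 102.9 and 100.9 CPM, lay on either side of the highest air library, at 101.6 CPM. The list's summed level ran from 163 to 333 CPM in air and from 185 to 526 CPM in exposed lungs. Lcn2, the iron-scavenging defence protein lipocalin 2, lay between 61.3 and 152 CPM in air lungs (median 91.9) and between 44.6 and 254.4 CPM in exposed lungs (median 116), with exposed libraries E-274 and E-276 above every air library and E-280 below every air library. The log2 fold change of Lcn2 was 0.45 ± 0.31 (SE, adjusted p of 0.713 by edgeR). Secreted defence genes had a median of 0.13 over 9 genes (0.06 without air library A-265, 0.21 without exposed library E-280), inflammasome genes 0.03 over 13, and NF-kB feedback genes 0.00 over 15. Icam1, a leukocyte adhesion receptor of the last list, had medians of 512 and 474 CPM and a log2 fold change of -0.09 ± 0.04 (SE).

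The lists for the sensors of soot and oxidants had medians near 0. Of 7 genes of the aryl hydrocarbon receptor list, 3 lay above 0, with a median of -0.00 and 0 at an unadjusted p under 0.05. The list holds not only targets but also Arnt and Ahr, the receptor itself, whose log2 fold change was the median. Cyp1a2 and Ahrr, also listed, were not tested, and the highest log2 fold change was that of Cyp1a1. Cyp1a1, the classical target of this receptor, lay between 10.7 and 22.9 CPM in air lungs (median 14.1) and between 4.28 and 37.8 CPM in exposed lungs (median 18.1). Exposed libraries E-273, E-274 and E-277 stood above every air library and E-276 and E-280 below every air library, a log2 fold change of 0.38 ± 0.34 (SE, adjusted p of 0.806 by edgeR). Of 13 NRF2 targets, 6 lay above 0, with a median of -0.01 and 0 at an unadjusted p under 0.05. Nqo1, a quinone reductase, lay between 44.4 and 51.3 CPM in air lungs (median 47.6) and between 39.4 and 51.4 CPM in exposed lungs (median 44.97), a log2 fold change of -0.08 ± 0.05 (SE, adjusted p of 0.674 by edgeR). Hmox1, which breaks down haem, lay between 29.6 and 53.4 CPM in air lungs (median 34.7) and between 28.3 and 46.3 CPM in exposed lungs (median 44.0), a log2 fold change of 0.14 ± 0.12 (SE, adjusted p of 0.786 by edgeR). The 12 tested p53 targets and the 13 genes of the unfolded protein response both had a median of -0.01, with 0 at an unadjusted p under 0.05.

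Of 11 alveolar macrophage genes tested, 8 lay below 0, with a median of -0.12, and 4 were lower at an unadjusted p under 0.05, also with the pairs summed. Without air library A-269 the median was -0.07, and without exposed library E-274 it was -0.19. Olr1, a receptor for oxidized LDL, lay between 40.9 and 57.5 CPM in air lungs (median 55.2) and between 29.4 and 48.5 CPM in exposed lungs (median 41.9). Every one of the 8 exposed libraries was under the mean of air lungs, 52.1 ± 6.34 CPM (SD, n = 7), and air libraries A-271 and A-272 lay within the exposed range. Its log2 fold change was -0.38 ± 0.10 (SE, adjusted p of 0.332 by edgeR). Mrc1, the mannose receptor CD206, lay between 155 and 220.3 CPM in air lungs (median 189) and between 157 and 177 CPM in exposed lungs (median 167), so that the air range held the whole exposed range. Cidec, a lipid droplet protein, had medians of 3.82 and 2.84 CPM, and Krt79, a keratin counted with this list, 37.4 and 31.7 CPM. Cd68, a lysosomal marker, and Pparg, the factor that specifies alveolar macrophages, had log2 fold changes of 0.03 ± 0.11 and -0.03 ± 0.08 (SE). The list's summed level was 898 to 1151 CPM in air and 797 to 1053 CPM in exposed lungs.

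Monocyte and interstitial macrophage genes had 10 of 17 members above 0 (median 0.01), and lysosomal and lipid-handling genes 10 of 19 (median 0.02). Cx3cr1 and Ms4a7, both markers of monocyte-derived cells, were the 2 monocyte genes at an unadjusted p under 0.05, with log2 fold changes of -0.29 ± 0.13 and -0.54 ± 0.21 (SE). With the pairs summed, 1 monocyte gene was lower at an unadjusted p under 0.05, and Cx3cr1 had an edgeR unadjusted p of 0.0585. Mmp12, the macrophage elastase, lay between 2.45 and 4.60 CPM in air lungs (median 3.29) and between 2.03 and 5.66 CPM in exposed lungs (median 3.96), and Spp1, the secreted protein osteopontin, between 3.99 and 14.2 CPM in air lungs (median 6.25) and between 4.10 and 10.1 CPM in exposed lungs (median 6.45). Their log2 fold changes were 0.17 ± 0.20 and -0.29 ± 0.25 (SE).

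Alveolar epithelial genes lay mostly below 0. Of 14 surfactant and alveolar type 2 genes, 11 did (median -0.09), with 0 at an unadjusted p under 0.05, and of 10 alveolar type 1 genes, 9 did (median -0.03). With the pairs summed, 12 of the 14 lay below 0 and 2, Sftpb, a surfactant protein, and Lpcat1, an enzyme of surfactant lipid synthesis, were lower at an unadjusted p under 0.05; without air library A-269 the median was -0.05. Sftpc had a log2 fold change of -0.09 ± 0.06 and Sftpa1, another surfactant protein, -0.15 ± 0.08 (SE). Aqp5, the water channel of type 1 cells, had medians of 446 and 421 CPM and a log2 fold change of -0.12 ± 0.06 (SE). Cyp4b1, a monooxygenase counted with club cells, lay between 340.0 and 395 CPM in air lungs (median 372) and between 315 and 368 CPM in exposed lungs (median 324), with the close pair E-275 and E-278 as the highest exposed libraries and a log2 fold change of -0.14 ± 0.04 (SE, adjusted p of 0.368 by edgeR). Ciliated cell genes had a median of 0.02, with 8 of 12 above 0, and 1 of 12 without exposed library E-273.

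Among lymphocyte lists, that of natural killer and cytotoxic cells had 8 of 10 members below 0 (median -0.11). Exposed library E-279 was the lowest of all libraries for this list, at a mean log2 level of -0.46 relative to air, and without it the median was -0.04. Tbx21, the transcription factor T-bet, had medians of 12.6 and 10.1 CPM and a log2 fold change of -0.33 ± 0.12 (SE, adjusted p of 0.463 by edgeR), and Nkg7, a granule protein, 21.1 and 19.1 CPM and -0.20 ± 0.09 (SE). T cell genes had a median of 0.01, with 9 of 17 above 0 and 4 of 17 without exposed library E-273, and B and plasma cell genes 0.04, both with 0 members at an unadjusted p under 0.05. Igkc, an immunoglobulin light chain, reached 787 CPM in air library A-269 and lay between 137 and 434 CPM in all others. Kit, the stem cell factor receptor found on mast cells, had medians of 359 and 325 CPM, a log2 fold change of -0.14 ± 0.06 (SE), while its list of mast cells, basophils and eosinophils had a median of 0.09. Of 17 MHC class II and dendritic cell genes, 10 lay above 0 (median 0.03), and Zbtb46, a factor of dendritic cells, and Ciita, the master regulator of MHC class II, had log2 fold changes of 0.15 ± 0.06 and 0.16 ± 0.08 (SE).

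Endothelial and stromal lists had medians near 0. Kdr, the VEGF receptor of capillary cells, had medians of 1069 and 967 CPM and a log2 fold change of -0.11 ± 0.05 (SE), and the endothelial list had a median of -0.02 over 15 genes. In the list of vessel subtypes (median 0.04), Selp, the adhesion protein P-selectin, had medians of 8.08 and 5.76 CPM and Fibin 83.9 and 114 CPM. Of 14 smooth muscle and pericyte genes, 10 lay above 0 (median 0.04), and the contractile genes Myh11, Synpo2 and Myl9 had log2 fold changes of 0.12 ± 0.05, 0.18 ± 0.08 and 0.12 ± 0.06 (SE). Of 22 fibroblast and matrix genes, 13 lay above 0 (median 0.02), with Lox as the only member at an unadjusted p under 0.05. Col1a1, the main fibrillar collagen, had a log2 fold change of 0.02 ± 0.08, and Timp1, an inhibitor of matrix proteases, 0.01 ± 0.07 (SE). Gsn and Capg, an actin-capping protein, were the 2 of 13 actin regulators at an unadjusted p under 0.05, both lower.

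Genes of tissue and blood that a lung piece can carry along varied by library. The skeletal muscle list had a median log2 fold change of -3.32 over 4 genes, which rests on air library A-266. Myh1, a skeletal muscle myosin, stood at 210.1 CPM there and at 7.07 CPM or less in every other library, and without that library the list's median was -0.15. Heart muscle genes, which the pulmonary veins of rats also express, had a median of -0.02 with 3 of 9 above 0, and 0 to 9 of 9 when 1 library was left out, and Myh6, a heart myosin, lay between 0.404 and 96.5 CPM in air lungs (median 20.3) and between 1.21 and 152 CPM in exposed lungs (median 18.4). Of 11 red cell genes, 10 lay above 0 (median 0.17), but the median was 0.09 without exposed library E-278, and with the pairs summed it was 0.13, with 9 of 11 above 0. Hbb, a haemoglobin chain, stood at 2623 and 2637 CPM in the close exposed pair and at 1982 CPM or less in air lungs. The part of these contents in the other results was not tested.

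The effect at day 7 was set beside those at day 1 and day 27, each with its own air group, in 1 fit of all 48 libraries. The median log2 fold change of cholesterol synthesis genes was 0.09 at day 1 (15 of 20 above 0), -0.21 at day 7 (2 of 20) and -0.03 at day 27 (9 of 20). For interferon-stimulated genes it was -0.09 (2 of 28), 0.16 (25 of 28) and 0.02 (17 of 28). Cell cycle genes had -0.02, -0.17 and -0.07, and glucocorticoid response genes 0.04, 0.34 and 0.10. For no member of these 4 lists did the effect at day 7 differ from that at day 1 or day 27 at an adjusted p under 0.05. The smallest edgeR adjusted p among them was 0.127, for a cholesterol synthesis gene against day 27.

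Over all 14852 genes of that fit, the effect at day 7 differed from that at day 1 for 0 genes at an edgeR adjusted p under 0.05 (0%), with 1114 at an unadjusted p under 0.05. Aco1 had the smallest p, with a log2 fold change of -0.15 at day 7 and 0.09 at day 1, a difference of -0.24 ± 0.05 (SE, edgeR adjusted p = 0.178). Lrp2, the endocytic receptor megalin, had -0.10 at day 7 and 0.32 at day 1. Unc5b, a netrin receptor, Slc29a1, a nucleoside transporter, and Tmem100, a membrane protein of endothelium, had 0.10, 0.00 and 0.16 at day 7 and -0.20, -0.31 and -0.18 at day 1.

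From day 27 the effect at day 7 differed for 3 genes (0.0202%), with 2206 at an unadjusted p under 0.05 (edgeR), and with the close pairs of all days summed for 0 genes. Eif5b, a translation initiation factor, had a log2 fold change of -0.04 at day 7 and 0.23 at day 27, a difference of -0.27 ± 0.05 (SE, edgeR adjusted p = 0.0382). Rrbp1, a ribosome-binding protein of the endoplasmic reticulum, had 0.00 at day 7 and 0.27 at day 27, a difference of -0.26 ± 0.05 (SE, edgeR adjusted p = 0.0454). In both, the effect farther from 0 was that of day 27. The other was Rn60_7_1165.1, an identifier without a gene name, whose exposed day 7 libraries ran from 0.162 to 31.6 CPM and whose air day 27 libraries ran from 0.0972 to 41.7 CPM. After summing, the edgeR adjusted p was 0.145 for Eif5b, 0.187 for Rrbp1 and 0.0595 for Rn60_7_1165.1. Rpl36 and Magt1 came next, with an edgeR adjusted p of 0.0717 and 0.0728.

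DESeq2 called genes at day 7 where edgeR called none, and the cause of this difference between them was not tested. DESeq2, which in groups of this size replaces counts that it takes as outliers, gave 7 higher (0.0461%) and 13 lower genes (0.0856%) at an adjusted p under 0.05, of 15193 with an adjusted p. Among the higher ones were Acap3, Socs2, Creb5, Adamts15, Appl2 and Zhx3. The lower ones were Ggta1, Gsn, Zfp367, Bckdhb, Abcb1a, Lta4h, Tfrc, Rrm1, Mettl24, the low-count Rpl35a identifier, Ehd4, an endosomal trafficking protein, Epcam, an adhesion protein of epithelium, and Bcas1, which the filter on low counts had kept out of the edgeR test. With the pairs summed, DESeq2 called 7 genes, and limma-voom called 0 with all libraries. In edgeR, leaving out exposed library E-277 gave 11 genes at an adjusted p under 0.05, among them Acap3, Socs2, Tfrc, Fli1 and Ksr1. Leaving out air library A-272 gave 3 (Acap3, Socs2 and Ggta1), leaving out exposed library E-273 gave Adamts15 alone, and leaving out any of the other 13 gave 0.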

How the data were processed

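The values are expected counts per gene, which the authors deposited as 3 tables, 1 per day, of 32285 gene identifiers with names, not normalized. Salmon 1.10.1, STAR 2.6.1d, Trim Galore 0.6.7, cutadapt 3.4, bcl2fastq 2.19 and the build Rnor_6.0 are named in the submitters' processing notes, and settings are not given in the sources used here. Per the labels' protocols, the library kit keeps strand. Of the day 7 values, 5.62% were not whole (tolerance 1e-06), and all were rounded. Of the identifiers, 4671 share a name with another, and the one with most counts stood for a list gene.

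Genes were filtered with filterByExpr, scaled with TMM and tested with edgeR 4.0.16 (R 4.3.3; quasi-likelihood, robust, Benjamini-Hochberg over all genes of the day 7 table), exposed against air without covariates; an SE is the absolute log2 fold change over the square root of F. Days were compared by interaction contrasts over the 48 libraries, whose tables are expected counts of 1 kind. Alternatives were DESeq2 1.42.0, limma-voom (limma 3.58.1), other size factors, no filter, total count as covariate, close pairs summed or averaged, and leaving out each library. Close pairs were found from squared count differences over genes with at least 20 counts. Only the main edgeR test at day 7 and the statistic for close pairs were checked on simulated data. The libraries simulated for the edgeR test were independent and held no close pairs.

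The comparison, the 40 lists (617 genes, of which 593 had a row and 557 were tested) and the naming rule were chosen with earlier results of these data known. The rule named 109 genes: the 12 higher and 12 lower of smallest p with a mean of at least 1 CPM and at least 7 of 8 exposed libraries on 1 side of the air mean, up to 3 members per list at an unadjusted p under 0.05 or else its most abundant ones, 10 inflammation, xenobiotic and matrix genes, genes without overlap, and 5 per contrast between days. Other list members, and genes called by an alternative, were named after their values were seen. Start regions come from RefSeq's GRCr8 table and were printed for lists with 4 or more members at an unadjusted p under 0.05 and a motif chosen, which leaves out alveolar macrophages and skeletal muscle; the counts' own coordinates were not used. A few genes are not reported here.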

Additional observations from a re-analysis of the deposited data

Results flagged for a closer look

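In 218 checks of single libraries, with each close pair averaged, 23 values lay far from the rest of their group by Dixon's test (7 values a group), where chance gives about 1 in 20. Muscle genes made up several: Myh1 at 210.1 CPM, Acta1 at 140.0 CPM and Ckm at 70.6 CPM in air library A-266, Myh6 at 152 CPM, Actc1 at 88.8 CPM and Ckm at 4.50 CPM in exposed library E-273, and Acta1 at 2.89 CPM in exposed library E-279. Air library A-272 was highest of its group for Hspa1b (443 CPM), Gstp1 (152 CPM), Fli1 (76.5 CPM) and the low-count Rpl35a identifier (11.3 CPM), and lowest for Ggta1 (154 CPM). Air library A-269 was highest for Igkc (787 CPM), Fosb (19.9 CPM) and Bub1b (10.3 CPM), and air library A-267 lowest for Pigr (1028 CPM), the receptor that carries antibodies across epithelium. Exposed library E-277 was highest for Icam1 (553 CPM), Rrm1 (57.3 CPM) and Cx3cr1 (13.03 CPM). The close exposed pair of E-275 and E-278 was highest for Hbb (2630.1 CPM) and Cyp4b1 (368 CPM), exposed library E-276 for Apaf1 (86.2 CPM) and exposed library E-280 for Fam76b (49.1 CPM).

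For 3 genes the effect at day 7 differed from that at day 27 by the interaction test: Eif5b by -0.27, Rrbp1 by -0.26 and Rn60_7_1165.1 by 7.87 on the log2 scale. With the close pairs summed none of the 3 had an adjusted p under 0.05, and the values of Rn60_7_1165.1 rested on few libraries in both days.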

How the results depend on the processing

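The count of genes at an adjusted p under 0.05 stayed at 0 with other size factors, limma-voom, no filter, the total count as covariate and the close pairs summed or averaged. It was 20 with DESeq2 and, as an alternative chosen after seeing the data, 7 with DESeq2 and the pairs summed, and 0 to 11 when 1 library was left out, with 11 without exposed library E-277, 3 without air library A-272 and 1 without exposed library E-273; the cause was not tested. The count at an unadjusted p under 0.05 stayed within 1.5 times its value of 1208 under every alternative run. Genes whose groups did not overlap numbered 6, 18 with the close pairs averaged and 18 with them summed, which leaves fewer libraries to part, and 5 to 32 when 1 library was left out, most without exposed library E-277. Genes whose effect differed between day 7 and day 27 numbered 3, 0 with the pairs summed, 0 without the filter and 0 to 8 when 1 library was left out, most without air library A-272; the cause was not tested. The difference in library totals ran from -2.29% to 2.91% when 1 library was left out. Of 2071 values of the 109 named genes under alternatives, 50 turned sign, all in 11 genes near 0: with 1 library left out their log2 fold changes ran from -0.074 to 0.0015 for Gstp1, -0.032 to 0.13 for Cfap43, -0.068 to 0.019 for Pigr, -0.10 to 0.22 for Actc1, -0.013 to 0.064 for Col1a1, -0.026 to 0.065 for Timp1, -0.0298 to 0.0138 for Ctsb, -1.07 to 0.25 for Myh6, -0.076 to 0.065 for Cd79b, -0.038 to 0.042 for Hsp90b1 and -0.038 to 0.012 for Ahr. With the pairs summed, those of Col1a1, Hsp90b1 and Ahr were -0.014, -0.015 and 0.019. Of 760 list medians under alternatives, 757 moved by less than the spread between libraries; the others were those of clock genes without exposed library E-280 (-0.05) and of skeletal muscle without air library A-266 (-0.15) and with DESeq2 (-0.10). Of 760 counts of members above 0, 68 moved by over 1.5 times, such as 1 of 12 ciliated and 4 of 17 T cell genes without exposed library E-273, and 0 to 9 of 9 heart muscle genes when 1 library was left out. No paired analysis was possible because animal numbers are not shared between groups. With totals of 10226230 or more, low-count genes remain the least precise, and 8 libraries a group, fewer if the close pairs are single animals, limit what could be called.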
